A study of Mus musculus with 6 samples.

Results

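Chromatin that was called open in every wild-type library of lymph node regulatory T cells (Tregs), but in only some of the libraries from mice without Il33, made up 10826 autosomal regions. These members were found by merging the peaks of 6 lists wherever they overlapped by at least 1 bp, which gave 64817 regions, and by keeping those with a peak in all 3 wild-type (WT) libraries and in exactly 1 or 2 of the 3 knockout (KO) libraries. They were 25.4% of the 42549 autosomal regions with a peak in all 3 WT libraries. Of the rest, 28808 (67.7%) were present in all 6 libraries and 2915 (6.85%) in no KO library. The members were chosen by these presence calls, and by nothing else that was measured. Accessibility was measured by ATAC-seq, where the Tn5 transposase cuts open DNA and tags it for sequencing, in CD4+CD25+GITR+ Tregs (also described as Foxp3+) sorted from lymph nodes draining B16.F10 melanoma, 14 days after 300000 tumour cells were injected under the skin. The KO group was il33-/- on a C57BL6 background (replicates 1, 2 and 4), and the WT group was C57BL6 (replicates 2, 4 and 6). The labels give neither the age nor the sex of the mice, nor whether a library came from 1 mouse or from pooled mice, so spreads between libraries may be technical. Because the presence calls of the 6 libraries chose the members, every value that follows is a description, and no test between genotypes was made.

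Interleukin-33 is released by damaged or stressed cells and acts on cells that carry its receptor ST2, the product of Il1rl1. The receptor pairs with the product of Il1rap and signals through Myd88 and the NF-kB factors. ST2 marks a subset of Tregs with an effector and tissue-repair profile, while Tregs that circulate through lymph nodes carry homing genes such as Ccr7 and the naive T cell factors Lef1, Tcf7 and Bach2. Open chromatin regions are mostly promoters, which lie at gene starts, and enhancers, which lie inside or between genes and are more often particular to a cell type.

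Some 592 members (5.47%) covered at least 150 bp of an annotated promoter window, against 8441 (29.3%) of the regions in all 6 libraries. The promoters of 4 immune genes are shown because each was covered by a member and each was kept in a different set of KO libraries. They are the 250 bases before an annotated start, 5′ to 3′ on the gene's strand, from RefSeq on GRCm38.p6, the assembly behind mm10. Capitals mark matches, on either strand, to letters of the STAT motif (TTCNNNGAA), the SP1 motif (GGGCGG) and the CCAAT box (CCAAT), which 7.06%, 33.0% and 33.7% of all 31396 autosomal promoter windows of this length hold, and no marked match overlaps another. The AP-1 motif (TGACTCA), the ETS motif (CCGGAAG) and the Runx motif (TGTGGTT) had no match in these 4 windows, which says nothing about the factors.
Tnfrsf18, kept in KO replicates 1 and 2: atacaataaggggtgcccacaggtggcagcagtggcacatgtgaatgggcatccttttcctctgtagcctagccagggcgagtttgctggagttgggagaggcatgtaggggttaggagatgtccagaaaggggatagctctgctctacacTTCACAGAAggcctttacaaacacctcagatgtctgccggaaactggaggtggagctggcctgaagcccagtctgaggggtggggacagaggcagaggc
Stat5b, kept in KO replicate 4: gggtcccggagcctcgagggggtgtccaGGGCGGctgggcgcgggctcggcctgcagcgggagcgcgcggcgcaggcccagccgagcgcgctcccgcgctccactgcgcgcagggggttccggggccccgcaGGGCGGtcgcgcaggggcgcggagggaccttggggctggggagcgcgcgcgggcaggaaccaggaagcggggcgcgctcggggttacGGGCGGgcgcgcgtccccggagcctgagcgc
Foxp1, kept in KO replicates 1 and 4: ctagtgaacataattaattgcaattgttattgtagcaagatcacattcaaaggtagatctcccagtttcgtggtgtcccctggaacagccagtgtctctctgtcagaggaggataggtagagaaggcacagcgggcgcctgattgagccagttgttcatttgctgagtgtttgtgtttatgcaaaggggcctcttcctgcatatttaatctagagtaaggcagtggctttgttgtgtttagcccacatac
Runx3, kept in KO replicate 1: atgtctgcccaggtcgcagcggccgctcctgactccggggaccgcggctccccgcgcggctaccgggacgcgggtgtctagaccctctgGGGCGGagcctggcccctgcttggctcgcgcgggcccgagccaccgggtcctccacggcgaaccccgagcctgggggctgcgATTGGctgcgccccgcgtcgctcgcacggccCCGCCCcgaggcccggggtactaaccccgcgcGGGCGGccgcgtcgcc
Tnfrsf18 encodes GITR, a receptor by which these cells were sorted, and its window (chr4:156026072-156026321, plus strand) lay inside the member at chr4:156025976-156026584. The window of Stat5b, a transcription factor that acts below the interleukin-2 receptor, was at chr11:100850582-100850831 (minus strand), at a start inside the gene, and its member at chr11:100850233-100850804. Foxp1, a transcription factor that keeps T cells quiescent, had its window at chr6:99266516-99266765 (minus strand), also inside the gene, and the member at chr6:99265981-99266624. This member reached only the part of the printed Foxp1 bases nearest the start. Runx3, a transcription factor of the CD8 and Th1 lineages, had its window at chr4:135152295-135152544 (plus strand), again inside the gene, and the member at chr4:135152101-135152533. The Stat5b and Runx3 windows were rich in CpG (40 and 38 CpG, 82% and 78.8% GC), while those of Tnfrsf18 and Foxp1 held 2 and 3 CpG (56% and 45.2% GC).

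Heights are the authors' own per-peak values, the number of extended tags stacked at the summit, and are not scaled to depth. At the Tnfrsf18 promoter the height was 50 and 37 in KO replicates 1 and 2, with no peak called in KO replicate 4, against 72, 65 and 82 in WT replicates 2, 4 and 6. At the Stat5b promoter it was 32 in KO replicate 4, with no peak in the other KO libraries, against 56, 55 and 56 in WT. The KO library without a call at Tnfrsf18 was the most deeply sequenced of its group. At the Foxp1 promoter the heights were 24 and 27 in KO replicates 1 and 4, against 39, 44 and 43 in WT. At the Runx3 promoter the single KO height was 20, in replicate 1, against 37, 37 and 31 in WT. Unscaled, the KO heights at all 4 members lay below the 3 WT heights, but the KO libraries held fewer tags and the order changes with scaling. Per M tags (M, mega), the Tnfrsf18 promoter had 6.09 and 7.83 in KO, above the 5.51, 5.03 and 5.38 in WT. Of all members they kept, KO replicates 1 and 2 were above all 3 WT libraries in 26.8% and 65.4%. The Stat5b promoter had 3.10 in KO, below the 4.29, 4.25 and 3.68 in WT. The Foxp1 promoter had 2.92 and 2.62 in KO, against 2.99, 3.40 and 2.82 in WT, and the Runx3 promoter 2.44 in KO, inside the WT values of 2.83, 2.86 and 2.04.

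All 3 KO libraries held fewer tags than any WT library. After filtering, KO replicates 1, 2 and 4 held 8.21, 4.72 and 10.3 M tags (mean 7.75 ± 2.82 M, SD, n = 3), against 12.9 to 15.2 M in WT (13.7 ± 1.29 M, SD, n = 3), and the lists held 37266 to 42738 KO peaks and 52836 to 55939 WT peaks. A region without a call is one not detected at that depth, not one shown to be closed, and fewer cells with an open site and a less open site per cell cannot be told apart. Depth and genotype cannot be told apart either. The 7 genes that define Tregs here (Foxp3, Cd4, Cd3e, Il2ra, Tnfrsf18, Ctla4 and Ikzf2) each had a region called in all 6 libraries. Markers of other cells also had regions: B cell genes had 16 to 23 in KO and 26 to 33 in WT libraries, with a region in all 6 libraries at 7 of 9 genes and no peak at Ms4a1. CD8 T and NK genes had 5 to 9 in KO and 13 to 15 in WT (3 of 9 genes with a region in all 6, Ncr1 at 0), myeloid genes 23 to 27 and 33 to 35 (7 of 11, with Lyz2, Csf1r and Adgre1 at 0), and melanoma genes 12 to 15 and 17 to 22 (5 of 9, with Tyr, Dct and Tyrp1 at 0). Chromosome Y, which is outside the autosomes used here, had 7 regions called in all 3 WT libraries and none of them in a KO library. The part of other cells, and of a difference in sex, in the results was not tested.

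The KO library with the fewest tags kept the fewest members, while the other 2 kept about as many as each other. KO replicate 1 kept 6885 members (63.6%, 95% Wilson interval 62.7 to 64.5), KO replicate 2 kept 3468 (32.0%, 31.2 to 32.9) and KO replicate 4 kept 6847 (63.2%, 62.3 to 64.1), with intervals that cover counting error over regions only. Of all autosomal regions in the 3 WT libraries they kept 83.9%, 75.9% and 83.8%. Replicate 2, with the fewest tags, kept the smallest share, but replicates 1 and 4 kept shares with overlapping intervals although replicate 4 had more tags. That tie depended on the overlap asked for: where a library's peaks had to cover 50% of a region, 14752 regions met the rule, and replicates 1, 2 and 4 kept 62.3%, 27.0% and 66.5% of them, in the order of their tags. Per M tags, replicates 1, 2 and 4 kept 838, 734 and 664 members.

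**Figure D1:**
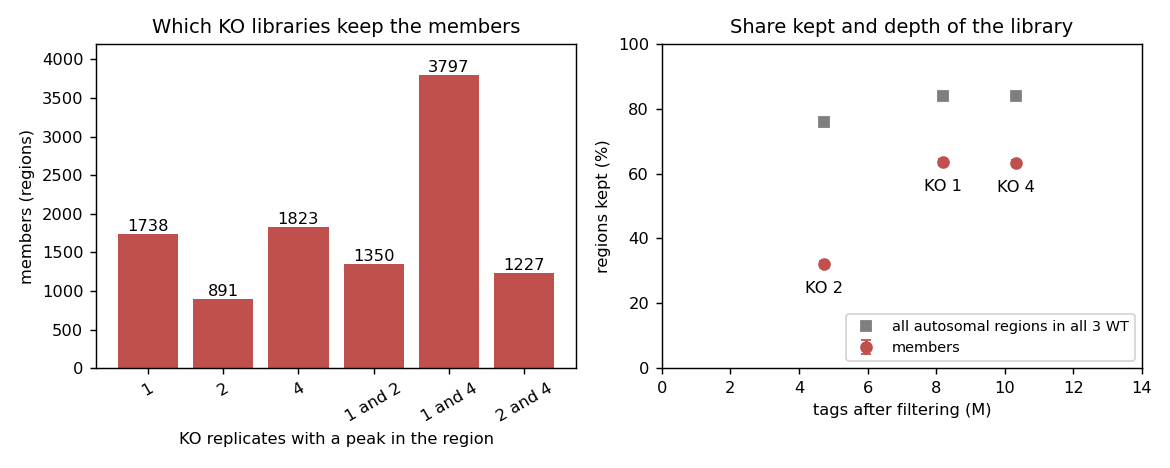
Left, the number of members (bars) by the KO replicates that had a peak there. Right, the share of regions kept (percent) against tags after filtering (M) for the 3 KO libraries, for members (circles, with 95% Wilson intervals smaller than the symbols) and for all autosomal regions in all 3 WT libraries (squares). The bar for replicates 1 and 4 together is the tallest, at 3797, and those 2 libraries keep 63.6% and 63.2% of the members.

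The most common set was replicates 1 and 4 together, with 3797 members (35.1%). Replicates 1 and 2 shared 1350 members and replicates 2 and 4 shared 1227. A single KO library kept 4452 members (41.1%): 1738 in replicate 1, 891 in replicate 2 and 1823 in replicate 4. Of the members that replicate 2 kept, 38.9% were also in replicate 1 and 35.4% also in replicate 4. Of the members that replicate 1 kept, 55.1% were in replicate 4, and 55.5% of those in replicate 4 were in replicate 1. In all, 3979 members had no peak in replicate 4, the deepest KO library, but had one in a shallower library. Without KO replicate 2, only 6140 regions had a peak in all 3 WT libraries and in exactly 1 of the other 2 KO libraries, and they divided into 50.3% in replicate 1 and 49.7% in replicate 4. With lists of equal length, the 37266 strongest peaks of each by significance, 4395 regions met the rule, and replicates 1, 2 and 4 kept 61.8%, 48.0% and 59.7% of them.

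Members were low and narrow peaks. Divided by the tags of each library, the median height of the members was 1.46, 1.69 and 1.36 per M tags in KO replicates 1, 2 and 4, where called, and 1.45, 1.47 and 1.25 in WT replicates 2, 4 and 6. Regions in all 6 libraries had 3.29, 4.23 and 2.91 in the KO and 3.52, 3.64 and 3.09 in the WT libraries. In each library the median of the members was below that of the regions in all 6. Undivided, the members' medians were 12, 8 and 14 tags in KO and 19 in each WT library. Averaged over WT, the members' median height was 1.40 per M (interquartile range 1.12 to 1.87), against 3.38 (2.16 to 5.69) for regions in all 6 and 1.12 for regions in no KO library. The merged members were 492 bp wide in the median, against 839 bp for regions in all 6, and their WT peaks were 363 bp and 688 bp long. Ranked by significance within its list, where 100 is the strongest, the median member stood at percentile 34.3 in WT, and the median region in all 6 at 71.8. Local background in WT was 0.164 and 0.355 tags per M.

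**Figure D2:**
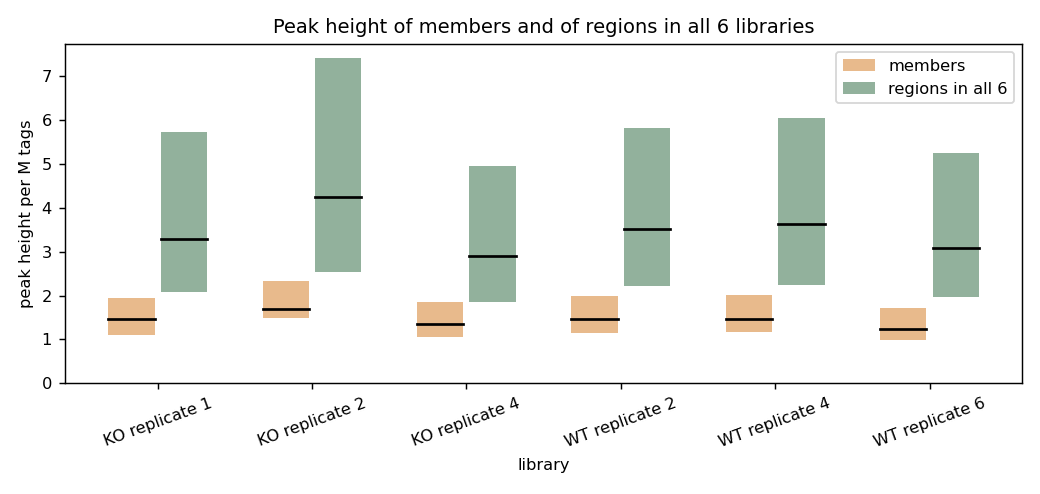
Peak height per M tags (vertical axis) in each library, KO libraries left of WT libraries, for members and for regions in all 6 libraries. Boxes span the quartiles and black lines are medians, with KO values only where a peak was called; member medians lie between 1.25 and 1.69, and medians of regions in all 6 between 2.91 and 4.23.

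Members kept by 1 KO library were lower in WT than those kept by a pair of them. Their median WT heights were 1.23, 1.21 and 1.32 per M for replicates 1, 2 and 4 alone, against 1.43 for replicates 1 and 2, 1.54 for 1 and 4, and 1.47 for 2 and 4. The WT peaks were shorter as well, with medians of 333 to 339 bp for single libraries and 379 to 390 bp for pairs. At the border of the rule, 16 members kept in a pair had a weakest KO peak with a −log10 q under 1.5, close to the authors' limit, and their median WT height was 1.24 per M. The 12 regions in all 6 with such a weakest KO peak had 1.28. The 8 members held by a single peak that close to the limit had 1.09, against 1.12 in regions with no KO peak.

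Across all WT regions, each KO library kept more of the taller ones. In the lowest decile by WT height (median 0.947 per M) KO replicates 1, 2 and 4 kept 42.8%, 29.1% and 40.2% of the regions. In the middle decile, number 5 from below (2.21 per M) they kept 88.2%, 80.1% and 89.4%, and in the 3 highest deciles each kept at least 96.7%. Members accordingly made up 57.9% of the lowest decile, 61.3% of the next and 0.0235% of the top decile. Among the members alone the pattern was flatter. From the lowest to the highest quintile by WT height, replicate 4 kept 51.4%, 59.1%, 63.0%, 69.4% and 73.4% of them, replicate 1 kept 56.9%, 61.0%, 66.0%, 67.6% and 66.5%, and replicate 2 kept 32.9%, 32.3%, 34.3%, 31.7% and 29.0%. Only replicate 4 thus kept a larger share in each higher quintile, and replicate 2 kept its smallest share in the highest.

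**Figure D3:**
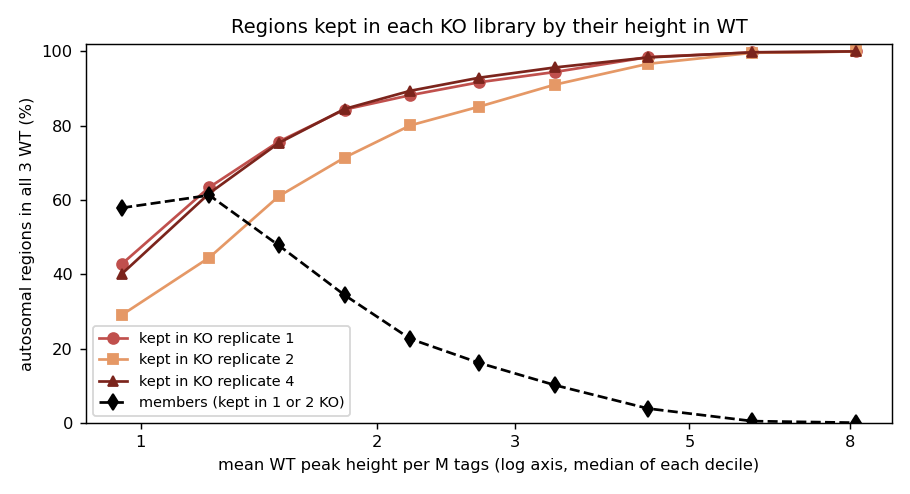
Share of the autosomal regions in all 3 WT libraries (percent, vertical axis) that each KO library kept, and the share that were members (dashed), by deciles of mean WT height per M tags (log axis, each point at the median of its decile). Replicates 1 and 4 lie close together from 42.8% and 40.2% in the lowest decile, replicate 2 lies below both in the 9 lower deciles, and members fall to 0.0235% in the top decile.

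Scaled down to the tags of a KO library, most WT heights at members still stood above the lowest height that library's list held. For the 3941 members without a peak in KO replicate 1 the scaled WT height had a median of 11.0 tags, against 11.7 for those it kept, and the lowest listed height was 5. For replicate 2 it was 6.66 over 7358 members without a peak and 6.56 over those kept, with a lowest height of 4. For replicate 4 it was 13.3 over 3979 members without a peak and 15.2 over those kept, with a lowest height of 6. Of the members without a peak, 2, 318 and 0 (0.0507%, 4.32% and 0%) had a scaled height under that lowest height. Of the members kept, 0%, 4.18% and 0% did. Members needed a call in every WT library, and the lowest mean WT height of any member was 0.589 per M. Scaled to replicate 4, even that stood above the lowest listed height, and scaled to replicate 1 only slightly under it. In replicates 1 and 4 these shares thus follow largely from the rule. Whether depth accounts for the missing calls was not tested. Set against the median height of the weakest 10% of each list (8, 6 and 10 tags), the shares were 15.3%, 39.0% and 16.8%, beside 11.3%, 40.2% and 9.68% of the members kept. A measure added after these values were seen, the Poisson p of the scaled height over the scaled background, passed the weakest p-value in the list for 100%, 92.9% and 100% of the members without a peak. For the members kept these shares were 99.9%, 94.7% and 100%, so the measure hardly separated them. The scaled heights are averages over WT, and the spread of tag counts around them was not modelled.

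Where a KO library did have a peak, its height over the scaled WT height had a median of 0.996 in replicate 1, 1.31 in replicate 2 and 0.919 in replicate 4, close to the 0.997, 1.28 and 0.877 of regions in all 6. Unscaled, the KO height lay below all 3 WT heights in 88.9%, 98.5% and 76.2% of the members that replicates 1, 2 and 4 kept. Per M tags it lay below them in 24.6%, 4.87% and 36.1%, within their range in 48.6%, 29.8% and 46.2%, and above them in 26.8%, 65.4% and 17.6%. The heights of single members in tags, as given for each gene, thus lie mostly below WT, which is not so per M tags. Per M values of a KO library exist only where it called a peak. The KO summits of members lay a median of 31, 35 and 30 bp from the WT summits, and those of regions in all 6 19, 21 and 18 bp. Peak length went with the calls as well: WT peaks averaged under 300 bp in 30.3%, 26.0% and 28.3% of the members without a peak in replicates 1, 2 and 4, and in 21.8%, 22.6% and 23.0% of those kept. The shortest peak was 200 bp in all 6 lists.

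The 541 tallest members (5%, at least 3.11 per M in WT) lay in other surroundings than the rest. Their median WT background was 1.001 tags per M, against 0.157 for the other members. A region present in all 6 libraries stood within 3 kb of 79.7% of them, at a median gap of 1422 bp, against 16.4% and 11137 bp for the other members. Of the tallest, 25.7% lay within 1 kb of a gene end, against 11.2%, and replicates 1, 2 and 4 kept 65.1%, 29.0% and 73.9% of them.

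The 6 members whose scaled WT height stood furthest over the lowest height of a KO library without them were of this kind, with backgrounds of 1.56 to 2.70 per M and a region in all 6 libraries 170 to 1789 bp away. They included a pair of regions inside Per1, a gene of the circadian clock. At chr11:69097029-69097354 the height was 64 in KO replicate 4 alone, against 87, 117 and 113 in WT. At chr11:69098118-69098402 it was 66 in KO replicate 4 alone, against 82, 74 and 107 in WT. Beside Fos, an AP-1 subunit induced by T cell stimulation, the member at chr12:85472149-85472434 had a height of 32 in KO replicate 2 alone, against 80, 81 and 86 in WT. Inside Tob2, a gene of the antiproliferative TOB family, the member at chr15:81856090-81856525 had 34 and 57 in KO replicates 2 and 4, against 76, 99 and 88 in WT. A member at chr14:54225027-54225425, with no protein-coding gene within 10 kb and just beyond the T cell receptor alpha constant region Trac, had 47 in KO replicate 1 alone, against 91, 78 and 88 in WT. The sixth, inside Ctla4, is given with the Treg genes. Unscaled, the KO heights of all 6 were under the 3 WT heights. Per M tags, Fos had 6.77 in KO, above the 6.12, 6.27 and 5.65 in WT, and Tob2 had 7.20 and 5.53 in KO, against 5.82, 7.66 and 5.78 in WT. The Fos value is from KO replicate 2, which was above all 3 WT libraries in 65.4% of the members it kept. The first Per1 member had 6.21 in KO, below the 6.66, 9.05 and 7.42 in WT, and the second 6.40, inside the WT values of 6.28, 5.72 and 7.03. The member beyond Trac had 5.72 in KO, against 6.97, 6.03 and 5.78 in WT. The 6 thus held no common direction per M tags.

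Members lay away from gene ends. Their median distance to the nearest end of a protein-coding gene was 14574 bp, against 6158 bp for regions in all 6, and 11.95% of them (95% Wilson interval 11.4 to 12.6) lay within 1 kb, against 35.0% (34.5 to 35.6). Inside a gene but more than 1 kb from its ends were 49.8% of the members and 35.7% of the regions in all 6, and between genes 38.2% and 29.3%. Regions in no KO library were placed like the members (12.2% within 1 kb, median 14220 bp). The difference went with height: among regions of 1 to 2 tags per M in WT, 10.7% of 6938 members and 10.1% of 5673 regions in all 6 lay within 1 kb, with medians of 15900 and 16652 bp. The gene table holds spans only, so start and end, exon and intron were not separated.

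**Figure D4:**
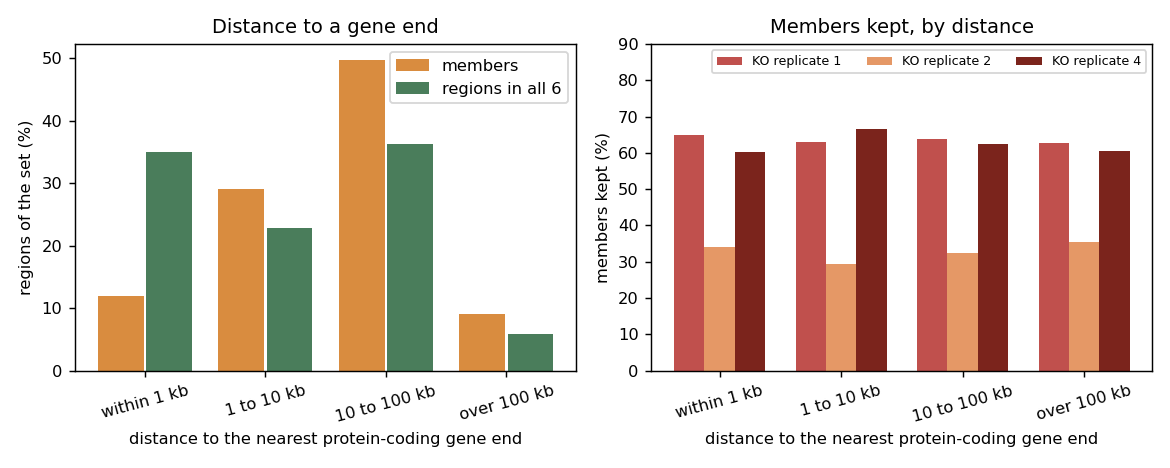
Left, the share of members and of regions in all 6 libraries (percent) by distance to the nearest protein-coding gene end. Right, the share of the members at each distance that KO replicates 1, 2 and 4 kept (percent). Within 1 kb stand 11.95% of the members and 35.0% of the regions in all 6, while the shares kept vary little with distance, from 60.4% to 66.5% in replicate 4.

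The share of WT regions that were members went with distance, and the KO libraries that kept them hardly did. Of the WT regions within 1 kb of a gene end 11.0% were members, against 29.7% at 1 to 10 kb, 31.2% at 10 to 100 kb and 33.8% beyond. Over these 4 distances replicate 1 kept 65.0%, 63.0%, 63.8% and 62.6% of the members, replicate 2 kept 34.2%, 29.5%, 32.4% and 35.5%, and replicate 4 kept 60.4%, 66.5%, 62.6% and 60.4%. Replicate 4 thus kept more members than replicate 1 only at 1 to 10 kb. By chromosome, members were 23.4% (chromosome 7) to 28.3% (chromosome 15) of the WT regions, and 24.3% on chromosome 19, which carries Il33.

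Promoters covered by members differed in their letters from those covered by regions in all 6. Of the 666 promoter windows that a member covered, 4.05% held the ETS letters CCGGAAG, against 15.7% of the 11220 windows under regions in all 6 and 7.01% of all windows. The AP-1 letters TGACTCA were in 6.31%, against 2.71% and 4.50% of all windows. The SP1 letters were in 55.3% against 62.5%, and the windows held a median of 14 against 17 CpG. At 1 to 2 tags per M in WT the ETS share was 2.64% of 379 member windows against 3.77% of 424 windows in all 6, and the AP-1 share 7.65% against 5.19%. Both gaps were thus narrower at like height, and the CpG medians were then 14 and 10, in the other order. The SP1 shares at like height were 56.2% and 49.5%, also in the other order.

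Of the members, 8046 (74.3%) overlapped a protein-coding gene or its flanks of 10 kb, and these regions touched 6403 genes, 4327 of them with 1 member and 182 with 5 or more. Genes of the immune lists, 208 on autosomes, had 1119 WT regions, of which 262 (23.4%) were members, close to the 25.4% of all WT regions. KO replicates 1, 2 and 4 kept 56.5%, 37.4% and 64.9% of these 262, beside 63.6%, 32.0% and 63.2% of all members. The 26 genes picked by name for the account that follows had 63 members among 208 WT regions (30.3%), at 20 of the genes, and the 6 autosomal genes that define Tregs had 15 among 45 (33.3%). A gene's members share its locus and are not independent.

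At the receptor for interleukin-33, Il1rl1 (chr1:40404864-40465418) had 5 members, 4 regions in all 6 libraries and 1 in no KO library. Replicates 1, 2 and 4 kept 4, 1 and 3 of the 5 members. The tallest, at chr1:40473694-40474029, lay 8276 bp beside the gene and inside its neighbour Il18r1 (chr1:40465552-40500854). Its heights were 24 and 30 in KO replicates 1 and 4, against 39, 29 and 40 in WT. Per M tags these were 2.92 and 2.91 in KO, inside the WT values of 2.99, 2.24 and 2.63 (WT mean 2.62 ± 0.371, SD, n = 3). Inside the gene, the member at chr1:40418495-40418873 had 8 and 9 in KO replicates 1 and 4, against 9, 17 and 16 in WT. At chr1:40425272-40425719 it was 9 and 14 in KO replicates 2 and 4, against 16, 18 and 23 in WT. The remaining pair was kept in KO replicate 1 alone. At chr1:40427291-40427632 the height was 11 there, against 16, 17 and 22 in WT, and at chr1:40444714-40445130 it was 8, against 12, 11 and 12 in WT. Per M tags the 2 had 1.34 in KO, inside the WT values of 1.22, 1.31 and 1.44, and 0.974 in KO, above the 0.919, 0.851 and 0.788 in WT. The member at chr1:40418495-40418873 had 0.974 and 0.873 in KO, inside the WT values of 0.689, 1.31 and 1.05, and that at chr1:40425272-40425719 had 1.91 and 1.36 in KO, against 1.22, 1.39 and 1.51 in WT. Where a peak was called, no KO height per M at the 5 members was below all 3 WT libraries. A KO library without a call has no height to compare, and no KO library kept all 5. Il1rap, the second chain of the receptor, had 1 region in all 6 libraries and no member.

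Below the receptor, NF-kB genes held members of moderate height. The list of 28 autosomal genes for the receptor and NF-kB had 31 members among 125 WT regions (24.8%), of which replicates 1, 2 and 4 kept 15, 11 and 19. Nfkb1, which encodes the p105 and p50 subunit, had 5 members and 7 regions in all 6. The tallest of them, at chr3:135690355-135691199, lay near an end of the gene's span (start or end) and 126 bp from a region in all 6. It had 19 and 27 in KO replicates 2 and 4, against 40, 35 and 37 in WT. At chr3:135640158-135640633 the heights were 17 and 13 in KO replicates 1 and 2, against 33, 33 and 31 in WT. At chr3:135676953-135677408, kept in KO replicate 4 alone, the height was 22, against 21, 22 and 28 in WT. Per M tags this last was 2.13 in KO, above the 1.61, 1.70 and 1.84 in WT. The tallest had 4.02 and 2.62 per M in KO, against 3.06, 2.71 and 2.43 in WT, and the member at chr3:135640158-135640633 had 2.07 and 2.75 in KO, against 2.53, 2.55 and 2.04 in WT. KO replicate 2 was above all WT libraries at both of these, as at 65.4% of all members it kept. The other KO value lay within the WT range. The other members at Nfkb1 had WT heights of 14 to 29. Rel, the subunit c-Rel, had 1 member at chr11:23734718-23735410, with 9 and 8 in KO replicates 1 and 2, against 17, 21 and 18 in WT. Tnfaip3, which encodes A20, an inhibitor of NF-kB, had 1 at chr10:18992947-18993403, with 14 in KO replicate 4 alone, against 17, 15 and 20 in WT. Per M tags the Rel member had 1.10 and 1.69 in KO, against 1.30, 1.62 and 1.18 in WT. The Tnfaip3 member had 1.36 per M in KO, above the 1.30, 1.16 and 1.31 in WT. Beside Bcl3, a nuclear partner of NF-kB, the member at chr7:19802986-19803459 had 9 and 14 in KO replicates 2 and 4, against 39, 44 and 36 in WT, and stood high in WT at percentile 73.9. Per M tags this Bcl3 member had 1.91 and 1.36 in KO, below the 2.99, 3.40 and 2.36 in WT. It was named for its high rank in WT among members kept in replicates 2 and 4. That choice favours heights above KO, so this order is not a result.

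Core Treg genes had 25 members among 103 WT regions (24.3%), and replicates 1, 2 and 4 kept 8, 9 and 19 of them, in another order than over all members. Ctla4, an inhibitory receptor, had 2 members and 5 regions in all 6. The one inside the gene, at chr1:60911387-60911986, had 37 in KO replicate 2 alone, the shallowest library, against 82, 78 and 86 in WT. Per M tags the order turned, with 7.83 in KO, above the 6.28, 6.03 and 5.65 in WT (WT mean 5.99 ± 0.318, SD, n = 3). KO replicate 2 was above all 3 WT libraries per M tags in 65.4% of all members it kept. The member beside the gene, at chr1:60916364-60916907, had 44 and 47 in KO replicates 1 and 4, against 72, 72 and 67 in WT, or 5.36 and 4.56 per M in KO, inside the WT values of 5.51, 5.57 and 4.40. No KO library thus kept both, and the WT background was 2.46 and 2.09 per M at these 2 members.

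Il2ra, which encodes CD25, another sorting marker, had 3 members and 5 regions in all 6, and KO replicate 4 kept all 3 members. Inside the gene, chr2:11651514-11651817 had 34 in KO replicate 4 alone, against 43, 47 and 48 in WT. The member at chr2:11657515-11657962 had 26 and 29 in KO replicates 1 and 4, against 33, 40 and 41 in WT. Beside the gene, chr2:11637141-11637475 had 15 and 25 in KO replicates 2 and 4, against 32, 36 and 33 in WT. Unscaled, all KO heights at the 3 were below the WT heights. Per M tags no called KO height was below all 3 WT heights, and a KO library without a call has no height to compare. The first had 3.30 per M in KO, inside the WT values of 3.29, 3.64 and 3.15. The second had 3.17 and 2.81 in KO, against 2.53, 3.09 and 2.69 in WT, and the third 3.18 and 2.42 in KO, against 2.45, 2.78 and 2.17 in WT. Il2rb, another chain of that receptor, had 1 member at chr15:78510192-78511084, with 12 and 15 in KO replicates 2 and 4, against 30, 33 and 24 in WT.

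Ikzf2, which encodes Helios, had as many members as regions in all 6, 8 each, and replicates 1, 2 and 4 kept 2, 3 and 6 of the members. The tallest, at chr1:69686905-69687930, covered an end of the gene's span, with start and end not told apart. It had 42 and 33 in KO replicates 1 and 4, against 50, 57 and 58 in WT, or 5.11 and 3.20 per M in KO, against 4.02 ± 0.341 per M in WT (SD, n = 3). At chr1:69681054-69681331, 212 bp from a region in all 6, the height was 39 in KO replicate 4 alone, against 57, 54 and 45 in WT. At chr1:69548451-69549085 it was 20 in KO replicate 2 alone, against 50, 42 and 41 in WT. Each of the 3 was kept in a different set of KO libraries. The other 5 had WT heights of 19 to 44 and KO heights of 13 to 27. Ikzf4, which encodes Eos, had 3 members with 13 to 29 in KO, against 13 to 38 in WT, none of them in replicate 2.

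Costimulatory and T cell receptor genes had 39 members among 165 WT regions (23.6%), of which replicates 1, 2 and 4 kept 20, 14 and 29. Icos, a costimulatory receptor of effector Tregs, had 4 members and 4 regions in all 6. Its member inside the gene, at chr1:60974019-60974564, had 22 and 19 in KO replicates 1 and 2, against 41, 26 and 34 in WT, and the 3 beside the gene had 9 to 22 in KO, against 17 to 37 in WT. Cd28, a costimulatory receptor, had 2 members, with 29 in KO replicate 4 alone, against 36, 36 and 38 in WT, and with 21 and 27 in KO replicates 1 and 4, against 40, 40 and 35 in WT. Cd6 and Nfatc1 had the most members of the list, 5 each. At Cd6, a surface regulator of T cell receptor signalling, heights were 18 to 39 in KO, against 26 to 55 in WT. At Nfatc1, a calcium-driven transcription factor, they were 7 to 35 in KO, against 18 to 48 in WT.

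**Figure D5:**
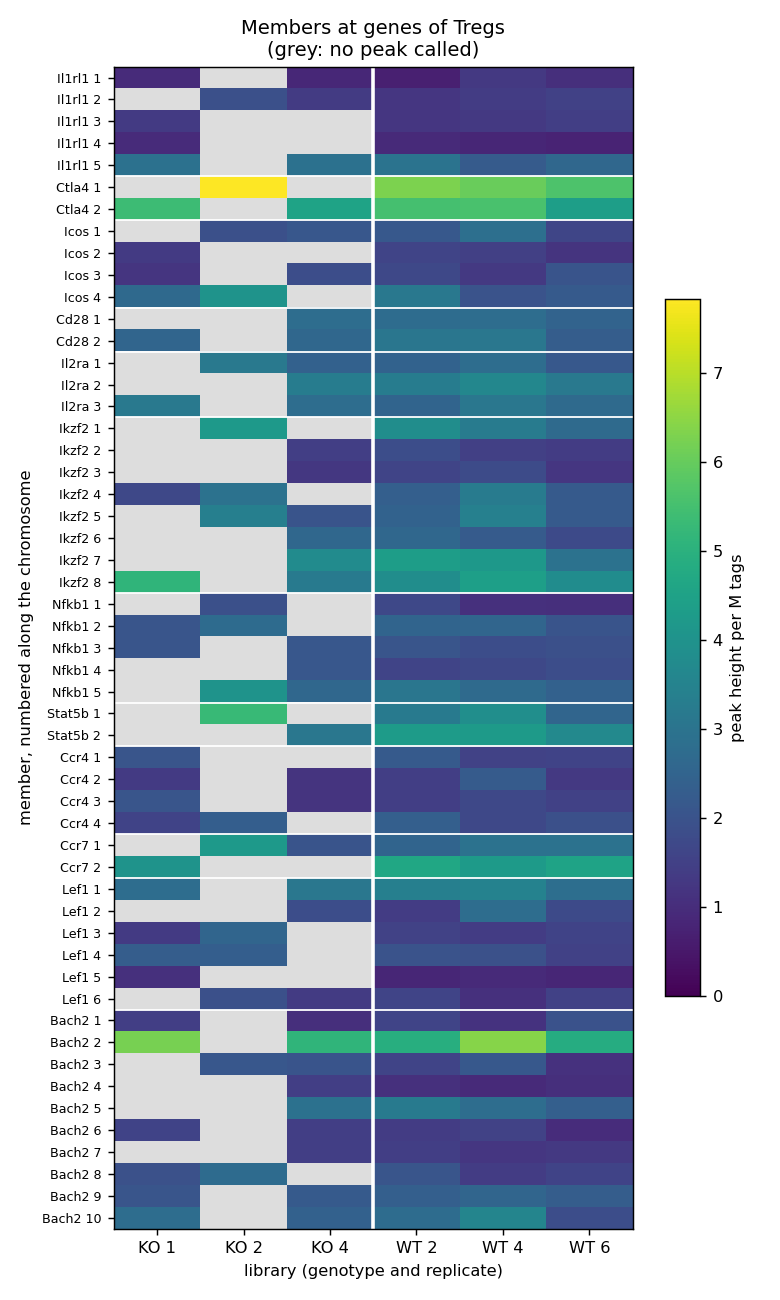
Peak height per M tags (colour) for each member (rows, numbered along the chromosome within a gene) at 12 genes of Tregs and T cells in the 6 libraries (columns, KO left of WT). Grey cells are KO libraries with no peak called; every row has 1 or 2 grey cells among KO and none among WT, and the members of Ctla4 and the second of Bach2 are among the tallest.

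Genes of naive and lymph node Tregs had 50 members among 185 WT regions (27.0%), and replicates 1, 2 and 4 kept 34, 17 and 32. Ccr7, the receptor that guides T cells into lymph nodes, had 2 members and 3 regions in all 6. At chr11:99150371-99150759 the height was 33 in KO replicate 1 alone, against 61, 55 and 69 in WT, or 4.02 per M in KO, against 4.48 ± 0.211 per M in WT (SD, n = 3). At chr11:99144509-99144809 it was 20 and 21 in KO replicates 2 and 4, against 33, 38 and 45 in WT. These 2 members were kept by no KO library in common. Bach2, a repressor that holds T cells in a naive state, had 10 members beside 24 regions in all 6, and replicates 1, 2 and 4 kept 6, 2 and 9 of the members. The tallest, at chr4:32248319-32248800, had 51 and 53 in KO replicates 1 and 4, against 64, 83 and 74 in WT. The other 9 had 10 to 30 in KO, against 12 to 46 in WT. Lef1, a transcription factor of naive T cells, had 6 members, 5 regions in all 6 and 4 in no KO library. Its tallest member, at chr3:131106037-131106629, had 23 and 32 in KO replicates 1 and 4, against 44, 45 and 43 in WT, and the rest had 9 to 19 in KO, against 11 to 36 in WT. Tcf7, its relative, had 2 members around the same end of the gene's span (start or end), with 20 and 25 in KO replicates 1 and 4, against 28, 42 and 40 in WT, and with 25 in KO replicate 4 alone, against 30, 38 and 45 in WT. Foxp1 had 9 members beside 34 regions in all 6, with 9 to 27 in KO, against 10 to 44 in WT.

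Effector and tissue Treg genes had 37 members among 150 WT regions (24.7%), of which replicates 1, 2 and 4 kept 22, 17 and 21. Rora, a nuclear receptor of tissue Tregs, had 9 members, and each KO replicate kept 5 of them. Its tallest member, at chr9:69300295-69300626, had 28 in KO replicate 2 alone, against 47, 49 and 57 in WT. Batf, an AP-1 factor needed for effector Tregs, had 1 member at chr12:85703514-85703873, with 28 and 17 in KO replicates 1 and 2, against 42, 41 and 34 in WT. Gata3 and Irf4, transcription factors of effector Tregs, had no member and 6 and 5 regions in all 6 libraries. Ccr8, a chemokine receptor of tumour Tregs, and Klf2, a factor of lymph node homing, also had none, with 3 and 2 regions in all 6 and 1 each in no KO library. Actb, the beta-actin gene, had 2 regions in all 6 and none of the others.

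Chemokine receptor genes had 15 members among 62 WT regions (24.2%), or 8 members with flanks of 5 kb. Ccr4, which guides Tregs to skin and tumours, had 4 members, all kept in KO replicate 1, with 11 to 17 in KO, against 19 to 31 in WT. Gpr15, a homing receptor for the large intestine, had 4 members and only 1 region in all 6, with 7 to 12 in KO, against 14 to 25 in WT. Cytokine receptor and JAK-STAT genes had 43 members among 172 WT regions (25%), of which replicates 1, 2 and 4 kept 29, 14 and 29. Il6ra, the interleukin-6 receptor, and Jak1, a kinase of cytokine receptors, had 5 each. Il6ra members had 13 to 33 in KO, against 16 to 53 in WT, and Jak1 members 14 to 30 in KO, against 24 to 49 in WT. The second member of Stat5b, at chr11:100840905-100841241, had 25 in KO replicate 2 alone, against 42, 50 and 39 in WT. Per M tags it had 5.29 in KO, above the 3.22, 3.87 and 2.56 in WT, as at 65.4% of all members replicate 2 kept. The 2 members of Stat5b were thus kept by different KO libraries, as at Ccr7 and Ctla4.

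Regions at AP-1 and activation genes were seldom members, with 8 of 66 WT regions (12.1%, or 5 members with flanks of 5 kb), 7 of the 8 kept in replicate 4, 4 in replicate 1 and 1 in replicate 2. Cd44, an activation marker, had 2, with 11 to 15 in KO, against 14 to 20 in WT. Housekeeping genes had 5 of 29 (17.2%, or 3 members with flanks of 5 kb), among them one 7643 bp from B2m, the light chain of class I molecules. That member lay 17 bp from an end of another protein-coding gene and had 32 in KO replicate 4 alone, against 47, 45 and 39 in WT. The 14 interferon response genes found in the gene table had 4 of 26 (15.4%). Among the lineage lists, Th1 genes had 12 of 49 (24.5%), Th2 genes 8 of 33 (24.2%), Th17 genes 13 of 47 (27.7%) and Tfh genes 11 of 54 (20.4%). Of the 12 Th1 members replicate 2 kept 1, and of the 11 Tfh members replicate 4 kept 3. Tox, a factor of Tfh and exhausted T cells, had 5 members, 4 of them in KO replicates 1 and 2, with 9 to 21 in KO, against 17 to 36 in WT. Bcl6, which directs Tfh cells, had 2, with 37 in KO replicate 1 alone, against 56, 58 and 57 in WT, and with 26 in KO replicate 2 alone, against 62, 57 and 60 in WT. Per M tags the first had 4.51 in KO, above the 4.29, 4.49 and 3.74 in WT. The second had 5.50 in KO, above the 4.75, 4.41 and 3.94 in WT.

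Genes of other cell types had members too. B cell genes had 9 of 25 WT regions (36%), of which replicates 1, 2 and 4 kept 6, 1 and 8. Cd79a, a chain of the B cell receptor, had 3 of them, all beside the gene. The tallest, at chr7:24902444-24903291, lay 586 bp from Cd79a and covered an end of another protein-coding gene. It had 41 and 43 in KO replicates 1 and 4, against 67, 60 and 63 in WT. CD8 T and NK genes had 3 of 9 (33.3%), myeloid genes 6 of 28 (21.4%) and melanoma genes 5 of 16 (31.3%, or 3 members with flanks of 5 kb). Zbtb46, a dendritic cell factor, had 3 members with 12 to 19 in KO, against 21 to 30 in WT, and Gpnmb, a melanocyte glycoprotein gene also active in macrophages, had 3 with 5 to 19 in KO, against 14 to 35 in WT. The share of each list is to be read against the 25.4% of all WT regions.

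The 10 genes with the most members span 180 to 913 kb. Wwox, a large gene at a fragile site, spans 913 kb and had 18 members beside 16 regions in all 6, of which replicates 1, 2 and 4 kept 11, 9 and 8. Lpp spans 599 kb and had 13 and 13, Inpp4b, a lipid phosphatase gene, spans 792 kb and had 11 and 27, and Itpr1, a calcium channel gene, spans 338 kb and had 11 and 14. Rad51b had 11 and 23 over 551 kb, and Tg, the thyroglobulin gene, had 10 and 14 over 180 kb, with all 10 of its members kept in replicate 1 and 4 in replicate 4. Bach2 came next with 10, and Foxp1, Hivep3 and Msi2 had 9 each, as did Nfia, Nsmce2 and Rora.

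For each set of KO libraries, the members ranked highest by significance in WT lay near genes of varied function. With replicates 1 and 4, the first was beside Akr1cl, an aldo-keto reductase family gene, at chr1:65010046-65010542 (percentile 77.8), with 18 and 11 in KO replicates 1 and 4, against 31, 41 and 35 in WT. With replicates 1 and 2, it was beside H2-Ab1, which encodes a class II MHC chain of antigen-presenting cells, at chr17:34261521-34261944 (percentile 75.5), with 28 and 21 in KO replicates 1 and 2, against 66, 60 and 60 in WT. With replicates 2 and 4 it was the member beside Bcl3. Next to these came Rapgef5 and Arnt2, then Adarb1 and Pard6g, then Rell1 and Tob2. Rell1, a relative of the TNF receptor RELT, had 7 and 16 in KO replicates 2 and 4, against 45, 38 and 53 in WT.

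Among members of single KO libraries, the first for replicate 1 was inside Osbpl9, an oxysterol-binding protein family gene, at chr4:109165434-109165912 (percentile 69.4), with 10 in KO replicate 1, against 30, 28 and 26 in WT. For replicate 2 it was beside Lbhd2 at chr12:111413224-111413707 (percentile 68.8), with 16 in KO replicate 2, against 29, 37 and 34 in WT. For replicate 4 it was inside Mccc1, which encodes a subunit of a leucine-degrading carboxylase, at chr3:35973434-35973924 (percentile 67.6), with 23 in KO replicate 4, against 24, 28 and 34 in WT. Napg and Ccdc81 followed for replicate 1, Syce1l and Hlf for replicate 2, and Rmdn1 and Thegl for replicate 4. Their heights were 7 to 20 in KO, against 23 to 48 in WT. Per M tags, the first for replicate 1 had 1.22 in KO, below the lowest WT value of 1.71. The first for replicate 2 had 3.39 in KO, above the 2.22, 2.86 and 2.23 in WT, as were 65.4% of all members that replicate kept. The first for replicate 4 had 2.23 in KO, level with the highest of the 1.84, 2.17 and 2.23 in WT.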

How the data were processed

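The deposited files were MACS peak lists of 6 ATAC-seq libraries, grouped by genotype and numbered as in the titles. Per the submitters' processing notes the build was mm10, with Picard 1.88 and Bowtie2 2.3.1 among the tools. Per the file headers, MACS 2.1.1.20160309 called peaks on each library alone, with no control, at a q-value of 0.05, with tags shifted by -100 bp, extended to 200 bp, and a local background window of 10000 bp. The deposited pileup is the signal (coverage) at the summit, unscaled for depth. Its significance over background is deposited as −log10 q-value and −log10 p-value, and the ratio of height to background, each plus 1, as the authors' fold, from which background was taken. A fixed q-value lets deeper libraries call weaker sites.

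Members follow the rule in the opening. Heights were divided by tags after filtering, per the file headers. Genes and promoters came from RefSeq tables of GRCm38.p6. A region belonged to a gene it overlapped or lay within 10 kb of. No test was made, since the rule used all 6 libraries. Wilson intervals (95%) cover counting error only. The members and the 19 gene lists were chosen with earlier results of these data known. The text names members at 26 genes chosen by name, 3 per set of KO libraries, up to 2 genes per list, the 10 genes with most members, and 6 tall members. Alternatives are in the closing section. The steps were tested on simulated data. SciPy 1.17.1, pandas 2.3.3, NumPy 2.4.6 and Matplotlib 3.10.9 ran under Python 3.11.15.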

Additional observations from a re-analysis of the deposited data

How the results depend on the processing

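The number of members was 10826 in the lists as deposited and stayed within 1.5 times of that with a −log10 q of at least 3 (10755), a region covered to 50% (14752), summit windows of 200 bp (11699) and autosomes without chromosome 19 (10498). It was 4395 with equal-length lists, where by construction 37266 peaks of each list enter. Leaving out 1 library gave 6140 (without KO replicate 2) to 12094 members. The share kept by KO replicate 1 was 61.8% with equal-length lists and 62.3% with 50% coverage, and 50.3% to 72.3% with 1 library left out. For KO replicate 2 it was 30.1% with the stricter threshold, 48.0% with equal-length lists, 27.0% with 50% coverage and 35.3% with windows, and 27.7% to 31.7% with 1 library left out. For KO replicate 4 it was 64.7%, 59.7% and 66.5% under the first 3 of these, and 49.7% to 71.5% with 1 library left out. With a KO library left out, members are kept in exactly 1 of the other 2, so the shares add to 100%. KO replicate 2 kept the smallest share under every alternative that held it. The share of members within 1 kb of a gene end was 16.5% with 50% coverage, 14.2% with windows and 18.2% with the ends of any gene, and 11.5% to 12.0% with 1 library left out, while regions in all 6 had 32.3% to 43.3% under these settings. With 5 kb around genes in place of 10 kb, 4 lists moved: AP-1 and activation genes had 5 members, chemokine receptors 8, housekeeping 3 and melanoma genes 3. The order of KO replicates 1 and 4 was not stable: replicate 4 kept more than replicate 1 with the stricter threshold (64.7% and 63.9%), with 50% coverage (66.5% and 62.3%) and without WT replicate 4 (62.7% and 62.5%). No paired analysis was possible because the rule used every library and no result comes from a test. The cause of the changes with coverage, windows and threshold was not tested. The lowest listed height was 5, 4 and 6 tags in KO replicates 1, 2 and 4, so weaker signals in these libraries are not in the lists.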

Other observations

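Outside the autosomes, chromosome X had 956 regions in all 3 WT libraries, of which 245 were kept in 1 or 2 KO libraries, 611 in all 3 and 100 in none. KO replicates 1, 2 and 4 kept 152, 89 and 147 of the 245, in the same order of size as on the autosomes.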
